A study of Sus scrofa with 12 samples.

Results

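Immediate early genes are the genes that a cell switches on first after a stimulus or an injury, before any new protein has been made. The 10 genes described here are FOS, JUN, ATF3, EGR1, KLF10, IER2, IER3, DUSP1, DUSP5 and ZFP36. They are known immediate early or stress-response genes, listed by name with earlier results of these data known, so their counts beside the shares of all genes are a description. They are 10 of the 31781 pig gene identifiers in the deposited expression table. Of these identifiers, 15347 could be matched to a symbol through RefSeq and Ensembl names, and each of the 10 symbols had 1 identifier.

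The samples are pig (Sus scrofa) blastocysts, embryos with an outer cell layer and an inner cell mass, made by parthenogenetic activation, in which an egg develops without sperm. The series title gives this origin for the embryos of every group. The fresh control group was not vitrified. The other groups are labelled vitrification, vitrification I and vitrification II; vitrification is very fast cooling into a glass-like solid. The labels do not say how the 3 procedures differ, and liquid helium, named in the series title, is tied to no group. No strain, age of the embryos or time after warming is given in the labels. Each group has 3 samples, but vitrification replicate 3 was not analysed here, so 11 libraries were used. The labels call every sample a blastocyst, whereas the protocol describes single cells put through Smart-Seq2, a method for copying full-length cDNA from very small amounts of RNA. Nothing states that replicates came from separate embryos or cultures, so the p-values cover only the spread among these libraries, part of which may be technical.

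In most animal cells, immediate early genes are controlled by transcription factors that are already present, such as the serum response factor and CREB, and that are activated by the ERK, JNK and p38 MAP kinases. Their mRNAs are short-lived, and several of their products close the loop. FOS, JUN and ATF3 proteins pair with each other and related proteins to bind DNA, the DUSP phosphatases switch MAP kinases off, and ZFP36 protein marks AU-rich mRNAs, among them early gene mRNAs, for decay. The genes respond to growth factors, heat, osmotic change, oxidative stress and handling of tissue.

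The libraries differed in ways that touch every value below. Mitochondrial genes took 37.6 to 43.9% of the summed FPKM (fragment numbers corrected for gene length and library size, so that levels of different genes can be compared) in fresh control, 38.7 to 51.8% in vitrification, 43.8 to 64.3% in vitrification I and 16.9 to 22.1% in vitrification II. Between 15383 and 16046 genes were above 0 in fresh control, against 11550 to 14039 in vitrification I. Trophectoderm markers, those of the outer cell layer of the blastocyst, summed to 10495 to 15527 FPKM in fresh control, 6640 to 17030 in vitrification, 2751 to 6060 in vitrification I and 13736 to 22053 in vitrification II, with all 10 markers at a mean of 1 FPKM or more except ELF3 in vitrification I. Most of each sum was KRT8 and KRT18, at 6343 and 3846 FPKM in fresh control replicate 1 and 1097 and 1088 in vitrification I replicate 1. The sums therefore follow these 2 keratins more than the list. In vitrification I against fresh control the log2 change was below 0 for 6 of the 10 markers and above 0 for 4. Among the 4 was TFAP2A, with a mean of 9.76 FPKM in fresh control and 123 in vitrification I. The 8 leukocyte markers summed to 2.14 to 17.4 FPKM in fresh control, 2.23 to 6.62 in vitrification, 1.04 to 4.27 in vitrification I and 3.37 to 5.53 in vitrification II. CD68, LYZ or ITGAM had a mean of 1 FPKM or more in each group, while PTPRC and CSF1R, which define leukocytes and macrophages, were at 0 in every library. The cumulus and granulosa markers together never passed 0.361 FPKM. The epiblast markers summed to 86.3 to 163 FPKM in fresh control and 36.9 to 59.6 in vitrification. They summed to 68.9 to 268 in vitrification I and 194 to 282 in vitrification II. In the same order of groups the hypoblast markers summed to 12.2 to 21.8, 19.7 to 54.0, 20.0 to 28.8 and 25.7 to 43.7. For both lists vitrification II overlapped another vitrified group. In such libraries, fewer cells of a type and less RNA per cell cannot be told apart.

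The immediate early genes were highest as a group in vitrification II. Together the 10 genes made up 0.0771 to 0.102% of the FPKM outside the mitochondrial genome in vitrification II, 0.0176 to 0.0271% in fresh control, 0.0348 to 0.0384% in vitrification and 0.0127 to 0.0156% in vitrification I. The ranges of the 4 groups did not overlap. This sum is weighted to the abundant genes: taken singly, only DUSP5 of the 10 was without overlap between vitrification and fresh control. Of the 10 genes, 7 to 8 reached 1 FPKM in a fresh control library, 7 to 9 in vitrification, 8 to 9 in vitrification I and 9 to 10 in vitrification II. Among all genes, 6761 to 7589 reached 1 FPKM in fresh control and 8024 to 9440 in vitrification. In vitrification I 6808 to 7801 did so, and in vitrification II 8626 to 9141, so the count of the 10 genes is not set apart from detection in general. All 10 passed the filter used for testing (1 FPKM or more in at least 3 libraries), but EGR1 and IER3 did so with only 5 libraries at that level, and FOS with 7. For EGR1 these were the 3 vitrification I libraries and vitrification II replicates 2 and 3. For IER3 they were fresh control replicate 1, vitrification replicate 2 and the 3 vitrification II libraries.

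**Figure D1:**
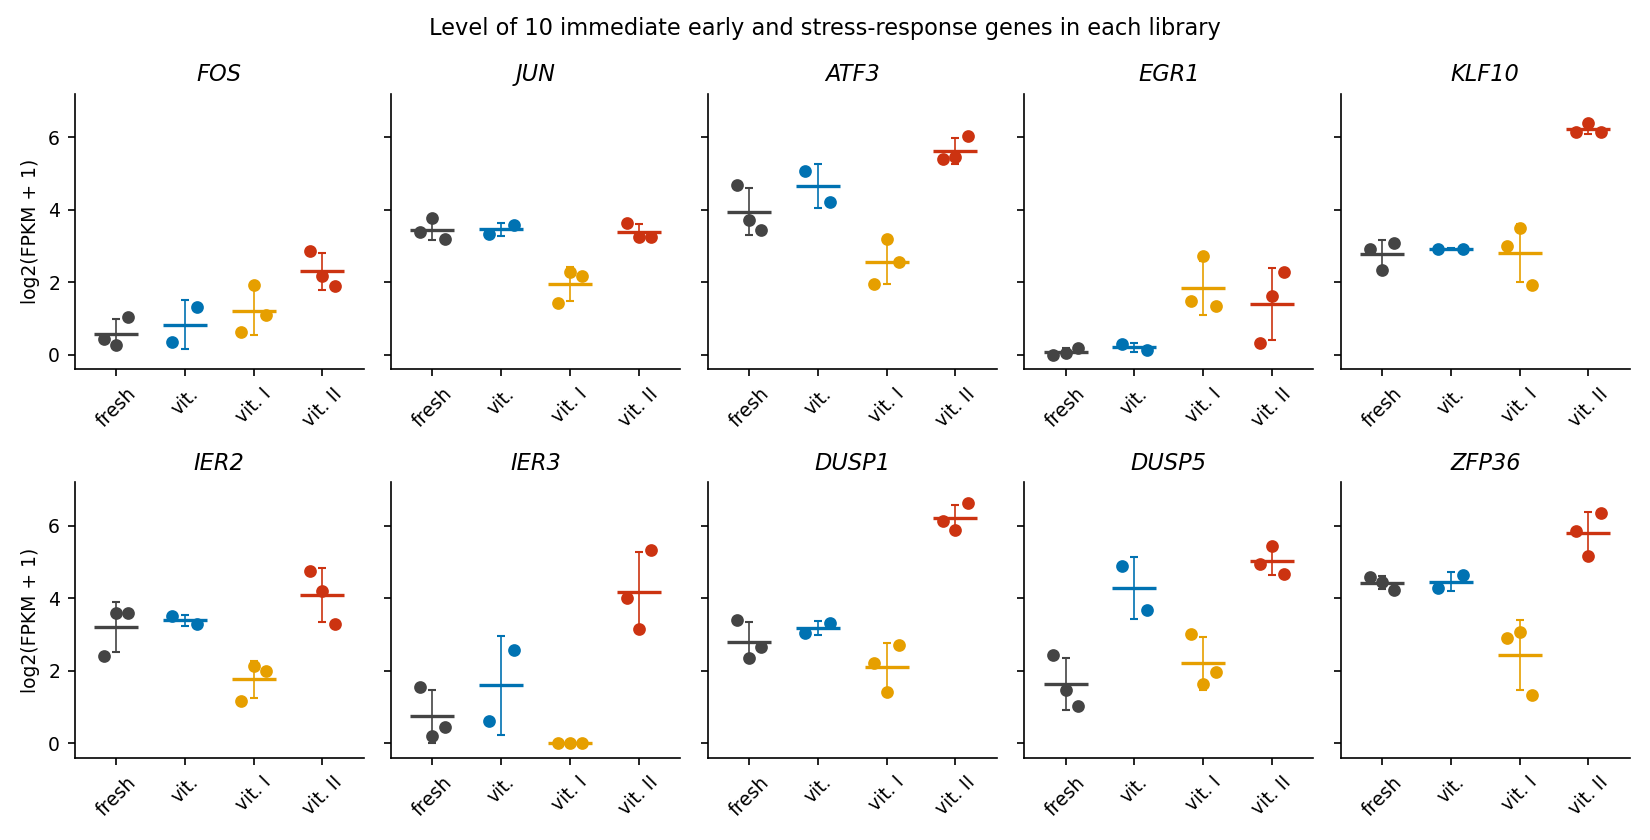
Level of each of the 10 genes as log2(FPKM + 1), by group, with 1 point per library, a bar at the group mean and its SD. KLF10, DUSP1 and IER3 are higher in each of the 3 vitrification II libraries than in any other library, and IER3 is at 0 in all 3 vitrification I libraries.

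FOS (ENSSSCG00000002383) encodes a subunit of the AP-1 transcription factor and is a standard marker of recent stimulation. Its FPKM was 0.362, 0.200 and 1.05 in fresh control, 0.274 and 1.49 in vitrification, 0.537, 2.78 and 1.16 in vitrification I, and 6.25, 3.47 and 2.70 in vitrification II. The vitrification II libraries were all above fresh control and vitrification, but the lowest of them lay under the highest vitrification I library. FOS rose in vitrification II over fresh control by a log2 change of 1.72 ± 0.42 (SE; limma, adjusted p = 0.00925). The call ended in 4 of 23 alternative analyses (adjusted p = 0.0506 to 0.147), which were no filter on low genes, quantile normalization, library median centring and leaving out fresh control replicate 2. Against vitrification I the change of FOS was 1.09 ± 0.42 (SE; adjusted p = 0.0501), just outside the threshold of 0.05.

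JUN (ENSSSCG00000031912) encodes the usual partner of FOS in AP-1. It was at 9.42, 12.6 and 8.12 FPKM in fresh control, 9.02 and 11.002 in vitrification, 1.69, 3.88 and 3.55 in vitrification I, and 11.4, 8.55 and 8.52 in vitrification II. Fresh control, vitrification and vitrification II overlapped, and every vitrification I library lay below all of them. JUN fell by 1.48 ± 0.36 (log2, SE; adjusted p = 0.0114) from fresh control to vitrification I, a call that ended with scaling to the non-mitochondrial total, without fresh control replicate 2, without vitrification I replicate 1 and with vitrification I replicate 2 as the only library of its group (adjusted p = 0.0554 to 0.188). In vitrification II the change of JUN from fresh control was -0.06 ± 0.36 (SE; adjusted p = 0.908), with a 95% interval of -0.83 to 0.70. Over the 11 libraries the Pearson r of FOS with JUN was 0.11, a description with no test.

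ATF3 (ENSSSCG00000015595) encodes a stress-induced transcription factor of the same bZIP family, and it was the most abundant of the 3 in most libraries. Its FPKM was 24.5, 12.3 and 9.77 in fresh control, 32.7 and 17.7 in vitrification, 2.87, 8.17 and 4.91 in vitrification I, and 40.8, 42.9 and 64.4 in vitrification II. The vitrification II libraries were above all others and the vitrification I libraries below all others, while fresh control and vitrification overlapped. ATF3 rose in vitrification II by 1.68 ± 0.43 (log2, SE; adjusted p = 0.0127) and fell by 1.37 ± 0.43 (adjusted p = 0.0391) in vitrification I, both against fresh control. The rise missed the threshold in 6 of 23 alternatives (adjusted p = 0.0563 to 0.218): no filter, quantile normalization, median centring, and without fresh control replicate 2, fresh control replicate 3 or vitrification II replicate 3. The fall missed it in 11 of 23 (adjusted p = 0.0509 to 0.493), among them without fresh control replicate 1 or 2, vitrification I replicate 1 or 3, or vitrification II replicate 2.

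EGR1 (ENSSSCG00000014336), a zinc finger transcription factor and a classic target of the serum response factor, was nearly silent in fresh embryos. It was listed at 0, 0.0423 and 0.142 FPKM in fresh control, 0.226 and 0.0926 in vitrification, 1.81, 5.56 and 1.56 in vitrification I, and 0.267, 2.06 and 3.90 in vitrification II. Every vitrification I and vitrification II library was above every fresh control and vitrification library, while vitrification I and vitrification II overlapped each other. EGR1 rose over fresh control by 1.77 ± 0.45 (log2, SE; adjusted p = 0.0148) in vitrification I and by 1.33 ± 0.45 (adjusted p = 0.0422) in vitrification II. It passed the filter only through libraries of the groups where it was high, which favours a call of higher. No other gene of the 10 was called higher in vitrification I than in fresh control. The vitrification I call ended without the filter and without fresh control replicate 2 (adjusted p = 0.0512 to 0.113). The vitrification II call ended in 12 of 23 alternatives (adjusted p = 0.0501 to 0.534), including leaving out any 1 of the 3 fresh control libraries, either vitrification library, or vitrification II replicate 2 or 3.

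KLF10 (ENSSSCG00000027480), a zinc finger repressor first known as an early target of TGF-beta, was low and even outside vitrification II. Its FPKM was 6.51, 4.06 and 7.50 in fresh control, 6.55 and 6.63 in vitrification, 7.05, 10.2 and 2.82 in vitrification I, and 69.3, 82.8 and 69.9 in vitrification II. All 8 libraries outside vitrification II overlapped in a low range, and the 3 vitrification II libraries lay far above it. The group means were 74.0 ± 7.62 FPKM (SD, n = 3) in vitrification II and 6.02 ± 1.77 (SD, n = 3) in fresh control, a 12.3-fold difference. The log2 change of KLF10 was 3.45 ± 0.40 (SE; adjusted p = 0.000217), and 0.276% of all genes tested rose more.

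IER2 (ENSSSCG00000013753) encodes a small nuclear protein induced with the first wave of early genes. It was at 4.27, 11.1 and 11.1 FPKM in fresh control, 10.3 and 8.74 in vitrification, 1.25, 3.38 and 2.97 in vitrification I, and 26.01, 17.4 and 8.84 in vitrification II. The vitrification I libraries were below all others, and the lowest vitrification II library lay within the fresh control range. IER2 fell by 1.43 ± 0.46 (log2, SE; adjusted p = 0.0407) in vitrification I against fresh control. The call ended in 13 of 23 alternatives (adjusted p = 0.0503 to 0.383), including the omission of fresh control replicate 2 or 3, either vitrification library, vitrification I replicate 1 or 3, or vitrification II replicate 2. The change of IER2 in vitrification II was 0.89 ± 0.46 (SE; adjusted p = 0.160), with a 95% interval of -0.08 to 1.86.

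IER3 (ENSSSCG00000027607), whose product acts on cell survival and on ERK signalling, was the only gene of the 10 that was listed at 0 throughout a group. It was at 1.96, 0.160 and 0.364 FPKM in fresh control, 0.547 and 4.91 in vitrification, and 15.0, 7.93 and 39.3 in vitrification II, and it was listed at 0 in all 3 vitrification I libraries. The vitrification II libraries were above all others, and fresh control and vitrification overlapped. Of 1416 genes at 20 FPKM or more in every fresh control library, 1, 0 and 1 were listed at 0 in the 3 vitrification I libraries. That count covers abundant genes only and says nothing of zeros at the level of IER3, which was 0.160 to 1.96 FPKM in fresh control. Counted over the whole table, fewer genes were above 0 in vitrification I (11550 to 14039) than in fresh control (15383 to 16046). IER3 rose in vitrification II over fresh control by 3.42 ± 0.57 (log2, SE; adjusted p = 0.0011). It passed the filter only with the help of vitrification II libraries, where it was high, which favours a call of higher. No fold is given against vitrification I, since a change fitted to values of 0 depends on the pseudocount.

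DUSP1 (ENSSSCG00000016991) encodes a nuclear phosphatase that mainly inactivates p38 and JNK. Its FPKM was 9.61, 4.12 and 5.31 in fresh control, 7.22 and 8.98 in vitrification, 3.64, 1.65 and 5.50 in vitrification I, and 68.5, 58.4 and 96.9 in vitrification II. The vitrification II libraries stood above all others, fresh control overlapped both other groups, and the vitrification I libraries lay below both vitrification libraries. The mean was 74.6 ± 20.0 FPKM (SD, n = 3) in vitrification II against 6.34 ± 2.89 (SD, n = 3) in fresh control, an 11.8-fold difference, and the log2 change of DUSP1 was 3.40 ± 0.41 (SE; adjusted p = 0.000239).

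DUSP5 (ENSSSCG00000040815), a nuclear phosphatase specific for ERK, followed another course. It was at 4.37, 1.77 and 1.05 FPKM in fresh control, 28.4 and 11.8 in vitrification, 7.15, 2.09 and 2.88 in vitrification I, and 29.9, 42.3 and 24.5 in vitrification II. Both vitrification libraries were above every fresh control and vitrification I library, and the higher of them lay within the vitrification II range. DUSP5 rose over fresh control by 3.37 ± 0.48 (log2, SE; adjusted p = 0.00052) in vitrification II and by 2.63 ± 0.54 (adjusted p = 0.0296) in vitrification. The vitrification call of DUSP5 ended in 8 of 23 alternatives (adjusted p = 0.0502 to 0.169), among them leaving out fresh control replicate 2 or 3 or either of the 2 vitrification libraries.

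ZFP36 (ENSSSCG00000028056), also called tristetraprolin, had the highest mean of the 10 genes in fresh embryos. Its FPKM was 23.1, 20.8 and 17.8 in fresh control, 18.3 and 24.1 in vitrification, 6.46, 7.40 and 1.52 in vitrification I, and 57.2, 35.0 and 80.5 in vitrification II. The vitrification I libraries were all lower and the vitrification II libraries all higher than fresh control and vitrification, which overlapped. ZFP36 fell by 1.99 ± 0.46 (log2, SE; adjusted p = 0.00882) in vitrification I and rose in vitrification II by 1.37 ± 0.46 (adjusted p = 0.0387). The fall was lost only without the filter and with vitrification I replicate 2 as the only library of its group (adjusted p = 0.0571 to 0.170). The rise was lost in 9 of 23 alternatives (adjusted p = 0.0757 to 0.423), including median centring and the omission of fresh control replicate 2 or 3 or vitrification II replicate 1 or 3.

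Between vitrification II and fresh control, 8 of the 10 genes rose, 0 fell, and JUN and IER2 did not pass the test. Among all 9411 genes tested, 24.6% were called higher and 1.09% lower, so a rise was common in these libraries. The median log2 change was 1.70 for the 10 genes and 0.62 for all genes tested. Libraries of the groups did not overlap for 8 of the 10 genes, all higher in vitrification II, as against 44% of all genes. Relative to the median of all genes, KLF10 was up by 2.83, IER3 by 2.80, DUSP1 by 2.78 and DUSP5 by 2.75, while FOS was up by 1.10, ATF3 by 1.06, ZFP36 by 0.75 and EGR1 by 0.71. This order depends on the pseudocount for the genes of low level: with 0.1 in place of 1 the log2 changes were 4.74 for IER3, 3.28 for EGR1 and 2.88 for FOS, beside 3.64 for KLF10.

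Other scalings of the libraries kept some of these 8 calls. With each library centred on its median, or with quantile normalization, 4 of the 10 genes were called higher, namely KLF10, IER3, DUSP1 and DUSP5. The share of all genes called higher was then 3.62% with centring (7.03% lower) and 4.11% with quantile normalization (3.07% lower). Scaled to the FPKM outside the mitochondrial genome, 6 were called, with FOS and ATF3 added, against 12.7% of all genes higher. KLF10, IER3, DUSP1 and DUSP5 were called in vitrification II over fresh control in all 23 alternatives, though IER3 passed the main filter only with vitrification II libraries. Of the 8 calls, 4 were left without fresh control replicate 2, 5 without fresh control replicate 3, 5 without vitrification II replicate 3 and 4 with no filter. The low mitochondrial share of the vitrification II libraries moved with the rise, and with that share taken out of the totals the log2 changes were 3.29 for KLF10, 3.20 for IER3, 3.24 for DUSP1 and 3.19 for DUSP5. Some cell type markers were also called higher in vitrification II, beside 24.6% of all genes in the main fit. They were 2 of 10 trophectoderm markers (TFAP2A at 3.04 and ELF3 at 1.48), 1 of 4 tested epiblast markers (LIN28A at 2.44) and 2 of 5 tested hypoblast markers (FN1 at 2.03 and PDGFRA at 1.52), with 0 called lower. The median log2 changes of these lists were 0.47, 0.74 and 0.50, against 0.62 for all genes. ELF3, FN1 and PDGFRA lost their calls with median centring and when single libraries were left out: fresh control replicates 1 or 2 and vitrification II replicates 1 or 2 for ELF3, fresh control replicates 2 or 3 and vitrification II replicates 1 or 3 for FN1, and any fresh control library, vitrification I replicate 1 or vitrification II replicates 2 or 3 for PDGFRA. Their part in the rise of the 10 genes was not tested.

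**Figure D2:**
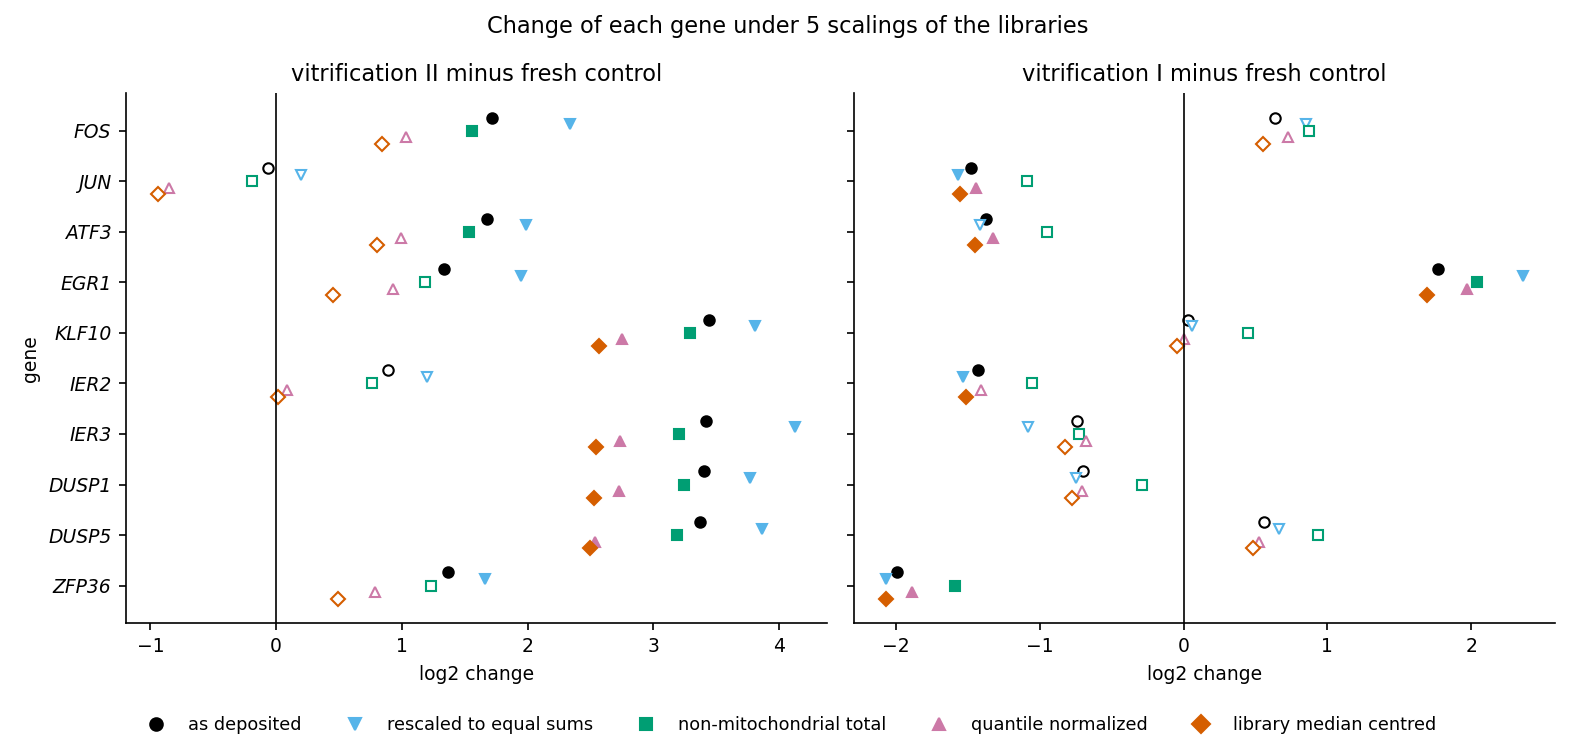
Log2 change of each of the 10 genes from fresh control under 5 scalings of the libraries, in vitrification II at the left and vitrification I at the right; filled symbols have an adjusted p under 0.05. KLF10, IER3, DUSP1 and DUSP5 stay filled under every scaling at the left, and EGR1 and ZFP36 do so at the right.

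Vitrification I gave a different picture from vitrification II. Of the 10 genes, 4 fell against fresh control (ZFP36, JUN, IER2 and ATF3), 1 rose (EGR1), and FOS, KLF10, IER3, DUSP1 and DUSP5 did not pass the test. Among all genes tested 9.77% were called lower and 8.85% higher, or 5.33% lower and 14.3% higher when libraries were scaled to the non-mitochondrial total, under which 1 of the 10 genes fell (ZFP36) and 1 rose (EGR1). The median log2 change was -0.72 for the 10 genes and -0.06 for all genes. Libraries did not overlap for 5 genes in the lower direction, the 4 above and IER3, and for EGR1 in the higher direction, against 18.9% and 17.3% of all genes. The log2 changes of the genes without a call were 0.63 for FOS, 0.03 for KLF10, -0.70 for DUSP1 and 0.56 for DUSP5, and that of IER3, at 0 in all 3 vitrification I libraries, is not given. With a pseudocount of 0.1 the change of EGR1 was 4.12. Fewer genes were above 0 in these 3 libraries, but genes at 1 FPKM or more numbered 6808 to 7801, against 6761 to 7589 in fresh control. The mitochondrial share of the 3 libraries reached 64.3%, and 4 of 10 trophectoderm markers were called lower and 1 higher. The part of these in the falls was not tested. The count of 5 calls dropped to 1 when fresh control replicate 2 was left out, to 2 when vitrification I replicate 1 was, and to 3 when either vitrification I replicate 3 or vitrification II replicate 2 was.

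In the vitrification group, with 2 libraries, DUSP5 was the 1 gene of the 10 called against fresh control, where 1.25% of all genes were called higher and 0.117% lower. With median centring 0 of the 10 genes were called, against 0.383% of all genes higher and 0.276% lower. The median log2 change was 0.22 for the 10 genes and 0.19 for all genes. The remaining 9 changes ran from 0.01 for JUN to 0.85 for IER3, and the libraries of the groups overlapped for each of those 9. DUSP5 was the 1 gene without overlap, as were 25.5% of all genes in the higher direction. The DUSP5 call was also lost with quantile normalization, with no filter, in a fit of only the 2 groups compared, and without fresh control replicate 2 or 3 or either vitrification library.

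**Figure D3:**
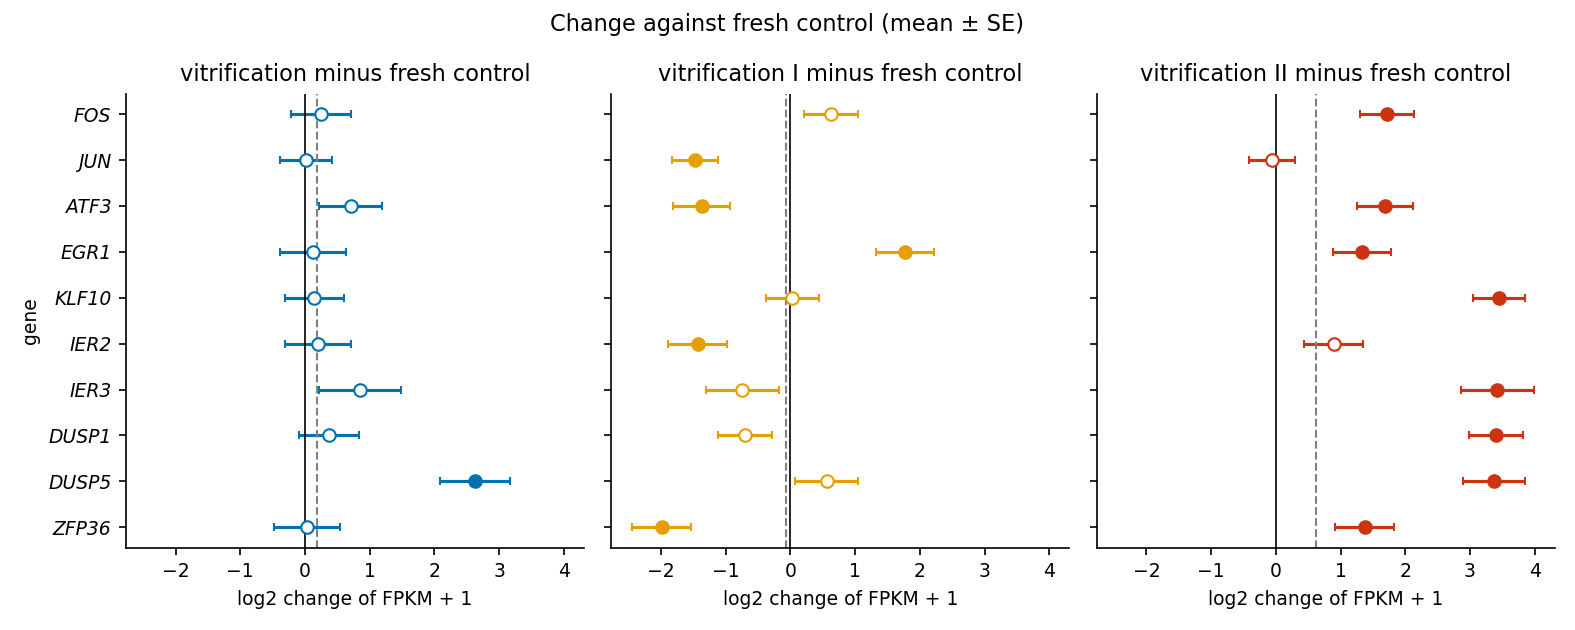
Log2 change of each of the 10 genes from fresh control in the 3 vitrified groups, with its SE from the limma fit; filled points have an adjusted p under 0.05 and the dashed line is the median change of all genes tested. In vitrification II 9 of the 10 points lie above 0, and in vitrification I ZFP36, JUN, IER2 and ATF3 lie lowest.

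The vitrified groups were also compared with each other. From vitrification I to vitrification II 8 of the 10 genes rose, against 34.7% of all genes called higher and 3.75% lower, or 11.6% and 16.5% with median centring, under which 7 of the 10 rose. DUSP1 rose by 4.10 ± 0.41 (log2, SE; adjusted p = 2.44e-05), KLF10 by 3.42 ± 0.40, ZFP36 by 3.36 ± 0.46, ATF3 by 3.05 ± 0.43, DUSP5 by 2.81 ± 0.48, IER2 by 2.32 ± 0.46 and JUN by 1.41 ± 0.36 (adjusted p = 0.0068), and IER3 was the eighth. The JUN call was lost with median centring, quantile normalization or scaling to the non-mitochondrial total, and both JUN and IER2 lost it with vitrification I replicate 2 as the only library of its group. EGR1 changed by -0.44 ± 0.45 (SE; adjusted p = 0.463). These comparisons share libraries with those above, so they are not independent of them.

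From vitrification to vitrification II 3 of the 10 genes rose, against 5.05% of all genes higher and 0.935% lower (0.446% and 0.606% with the non-mitochondrial total, under which 2 of the 10 rose). KLF10 rose by 3.30 ± 0.45 (log2, SE; adjusted p = 0.00367), DUSP1 by 3.03 ± 0.46 (adjusted p = 0.00458) and IER3 by 2.57 ± 0.63 (adjusted p = 0.0331). KLF10 lost its call without vitrification replicate 2, DUSP1 without either vitrification library, and IER3 in 10 of 23 alternatives, among them without either vitrification library or any 1 vitrification II library. The DUSP5 change of 0.74 in this comparison did not pass. From vitrification to vitrification I 4 genes fell, against 4.42% of all genes lower and 1.21% higher (3.32% and 3.1% with quantile normalization, under which 3 fell and EGR1 rose). They were ATF3 at -2.08 ± 0.49, DUSP5 at -2.07 ± 0.54, ZFP36 at -2.02 ± 0.51 and JUN at -1.49 ± 0.40 (log2, SE; adjusted p = 0.0249, 0.0384, 0.0335 and 0.0428). None of these 4 calls held without vitrification replicate 1, vitrification replicate 2 or vitrification I replicate 3, and 1 held without vitrification I replicate 1.

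When the 4 groups were tested together, all 10 genes had an adjusted p under 0.05 in the limma F test, from 9.47e-05 for DUSP1 to 0.0180 for FOS, where 42.7% of all genes did. The order of the group means differed by gene. Vitrification II was highest for 8 genes and vitrification I for EGR1, and for JUN the means of fresh control, vitrification and vitrification II did not differ beyond their spread. Vitrification II and its next neighbour differed for KLF10, IER3 and DUSP1, while the test was not passed for FOS, ATF3, IER2, DUSP5 and ZFP36. Fresh control and vitrification were neighbours for FOS, JUN, ATF3, EGR1, IER2, IER3, DUSP1 and ZFP36, and the test between them was passed by 0 of these 8. Vitrification I was lowest for JUN, ATF3, IER2, IER3, DUSP1 and ZFP36, and fresh control was lowest for FOS, EGR1, KLF10 and DUSP5. Because FPKM is per length, levels can be set side by side: in fresh control ZFP36 (20.6 FPKM) and ATF3 (15.5) were highest and EGR1 (0.0615) lowest, and in vitrification II DUSP1 (74.6) and KLF10 (74.0) were highest and EGR1 (2.08) lowest.

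The genes varied together between groups more than within them. Over the 11 libraries the 45 pairs among them had Pearson r from -0.59 (JUN with EGR1) to 0.94 (IER3 with DUSP1), with a median of 0.64 and 41 pairs above 0. With the group means taken out, the median was 0.01 and 23 pairs were above 0. KLF10 and DUSP1, at r = 0.89 over all libraries, were at -0.48 within groups. These are descriptions over libraries that share their groups and their scaling. No median r is given for pairs of other genes, and 42.7% of all genes tested differed between groups in the limma F test. Whether the genes described here vary together more than other genes do was not tested. Among 8157 other genes with a symbol, the profile most like ATF3 was that of PPP1R15A (r = 0.979), whose product helps restart translation after stress. The closest to DUSP1 was SACM1L (r = 0.984), to IER2 TMED9 (0.979), to KLF10 SLC25A32 (0.975), to IER3 DENND4C (0.972), to ZFP36 NUDT1 (0.967), to JUN SLC66A1 (0.963), to DUSP5 GABARAPL1 (0.956), to EGR1 TNFAIP8L1 (0.947) and to FOS TAF2 (0.937).

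Other genes of the same pathways were taken from lists, of which the genes that passed the filter are counted: 10 of 17 other immediate early regulators, 7 of 16 brakes on MAP kinases, 8 of 15 growth factor ligands and receptors, 13 of 20 genes of the RAS-ERK route, 11 of 16 of the JNK and p38 route, 14 of 16 of mRNA decay, 5 of 13 other AP-1 genes and 18 of 18 stress genes. Of 10 other immediate early regulators tested, 6 rose and 0 fell in vitrification II over fresh control, with a median log2 change of 1.76, beside 24.6% of all genes called higher and a median of 0.62 over all genes. They included BTG2, an antiproliferative gene, at 2.47 ± 0.70, MCL1, a survival gene, at 2.26 ± 0.39, and CSRNP1, a nuclear factor, at 2.21 ± 0.37 (log2, SE; adjusted p = 0.0190, 0.0015 and 0.00119). Of 7 other phosphatases and brakes on MAP kinases, 5 rose, with a median of 1.10, among them DUSP6, specific for ERK, at 2.99 ± 0.49 and DUSP16, which acts on JNK and p38, at 2.41 ± 0.44. Of 8 growth factor ligands and receptors 5 rose (median 1.52), including the receptor ERBB3 at 2.10 ± 0.34 and the ligands HBEGF at 2.04 ± 0.47 and EREG at 2.03 ± 0.36. With median centring the calls higher came to 2, 2 and 1 in these 3 lists, beside 3.62% of all genes. CSRNP1, DUSP6, DUSP16 and ERBB3 kept their calls in every alternative run, and BTG2 lost its call without fresh control replicate 2 or 3 or vitrification II replicate 3. DUSP16 (1.93), MCL1 (1.34), EREG (1.26) and ERBB3 (1.17) were also called higher in vitrification I, while BTG2, CSRNP1, DUSP6 and HBEGF were not. That MCL1 call was lost when any fresh control library was left out. In vitrification ERBB3 was called higher at 1.66 ± 0.38 (SE; limma, adjusted p = 0.0459), but without fresh control replicate 2 the calls over all genes came to 0.

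The remaining lists are given beside the same 24.6% of all genes called higher. Of the 13 genes of the RAS-ERK route, NRAS rose in vitrification II by 3.43 ± 0.46 (log2, SE; adjusted p = 0.000373), 0 fell, and the list's median of 0.62 equalled that of all genes. Of 11 genes of the JNK and p38 route 3 rose (MAP3K7, MAP3K1 and MAP2K3), a share near that of all genes, with a median of 0.70. Of 14 genes of AU-rich mRNA binding and deadenylation, the machinery that ZFP36 recruits, 8 rose (median 1.11), among them CNOT1, the scaffold of the deadenylase, at 2.09 ± 0.39, and the ZFP36 relatives ZFP36L1 at 1.98 ± 0.57 and ZFP36L2 at 1.82 ± 0.41. Of 5 other AP-1 and related bZIP genes 2 rose, JDP2 at 1.55 ± 0.48 and ATF2 at 1.46 ± 0.49, and JUNB and FOSL2 did not pass. Of 18 integrated stress and growth arrest genes 6 rose (median 0.71), led by PPP1R15A at 2.28 ± 0.53, GADD45B at 2.13 ± 0.49 and SESN2 at 1.70 ± 0.48. With median centring 1 gene of the RAS-ERK list, 1 of the mRNA decay list and 0 of the other 3 lists were called higher, and only NRAS and CNOT1 of the genes called here by name kept their calls in every alternative. Leaving out fresh control replicate 2 ended the calls of MAP3K7, MAP2K3, ZFP36L1 and ATF2, and leaving out fresh control replicate 3 those of MAP3K7, ZFP36L1, ATF2 and JDP2. Fresh control replicate 1 decided those of MAP2K3, JDP2 and SESN2. Among vitrification II libraries, replicate 1 decided MAP2K3, JDP2 and SESN2, replicate 2 MAP2K3, ATF2 and SESN2, and replicate 3 ZFP36L1, ATF2 and JDP2.

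In vitrification I, 12 of the 86 tested genes of these 8 lists rose over fresh control (14.0%) and 5 fell (5.81%), beside 8.85% and 9.77% of all genes. JDP2, a repressor that pairs with JUN, rose from 7.96 ± 4.55 FPKM (SD, n = 3) in fresh control to 95.9 ± 44.8 (SD, n = 3), a log2 change of 3.45 ± 0.48 (SE; adjusted p = 0.000524). PPP1R15A fell by 2.31 ± 0.53 (adjusted p = 0.00923) and DDIT4, an inhibitor of mTOR signalling, by 2.21 ± 0.68 (adjusted p = 0.0347), and 3 of the 18 integrated stress genes were called lower and 1, the kinase EIF2AK3, higher. MAPKAPK3, a kinase downstream of p38, fell by 2.31 ± 0.37 (adjusted p = 0.00116), and MAP3K1, upstream of JNK, rose by 2.06 ± 0.35 (adjusted p = 0.00154). The falls of PPP1R15A and MAPKAPK3 were lost with vitrification I replicate 2 as the only library of its group, and that of DDIT4 in 9 alternatives, among them without fresh control replicate 2 or 3 or vitrification I replicate 1 or 3. The call of EIF2AK3 was lost without fresh control replicate 2 or 3 or vitrification I replicate 3. JDP2 and MAP3K1 kept their calls in every alternative.

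**Figure D4:**
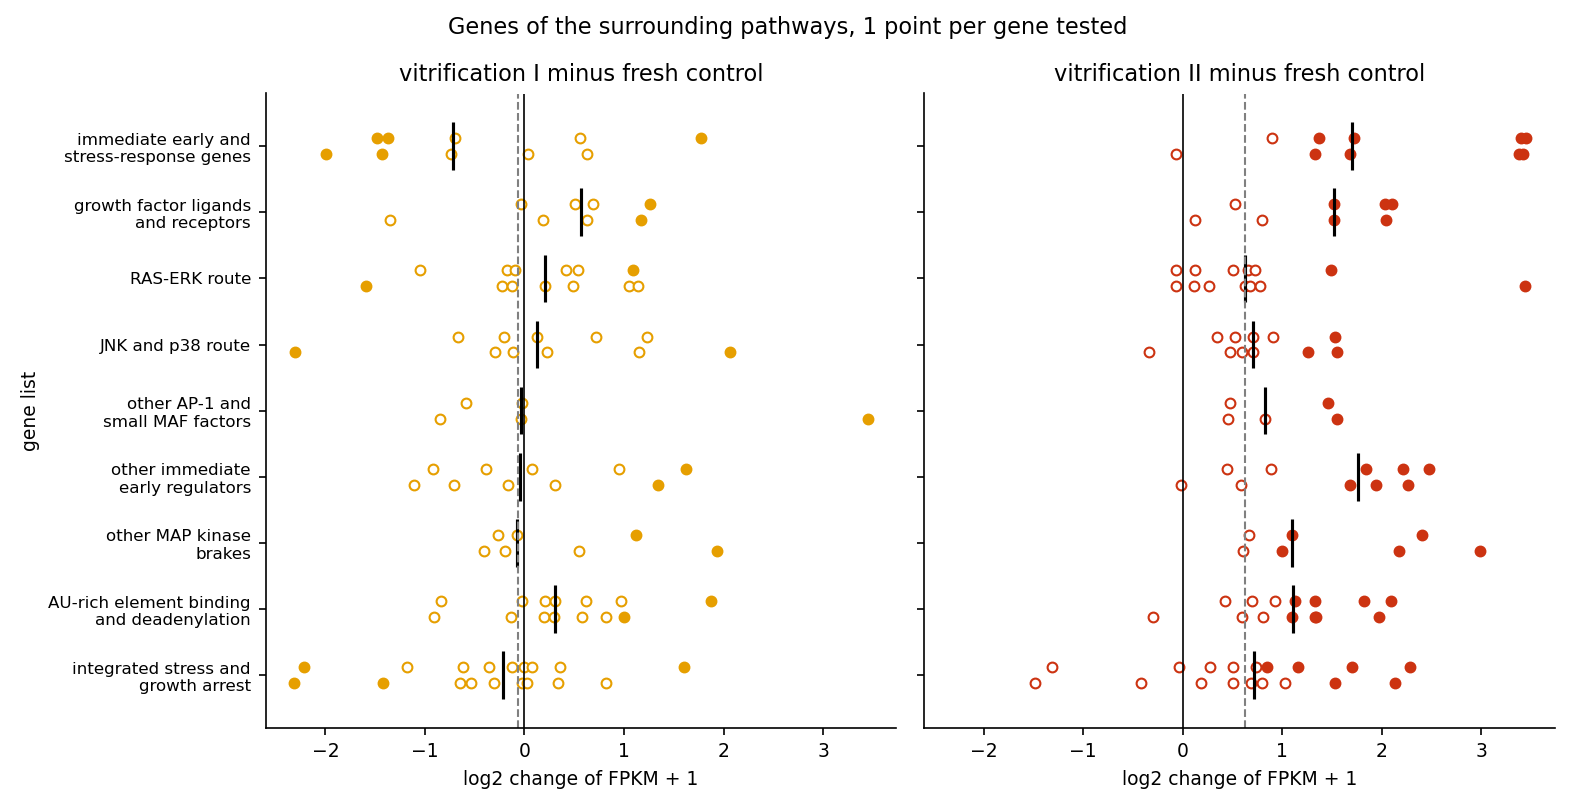
Log2 change from fresh control of each tested gene, by list, in vitrification I at the left and vitrification II at the right; filled points have an adjusted p under 0.05, short bars are list medians and the dashed line is the median of all genes tested. In vitrification I the highest point of the pathway lists is JDP2 at 3.45, and in vitrification II it is NRAS at 3.43.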

How the data were processed

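Per the submitters' processing notes the tools were FastQC, TopHat2 2.0.13, Cufflinks 2.2.1 and DESeq2, with no roles given; the genome build is not given in the sources used here. The authors deposited 1 table of FPKM values for 11 libraries, in which replicates were not pooled. It holds no counts and its low values show no common step, so the sequencing depth and the precision it gives are unknown. FPKM + 1 was put on the log2 scale without further scaling, so log2 changes understate those of low genes. Genes at 1 FPKM or more in at least 3 libraries were kept (9411, of which 8158 with a symbol). A model with 1 mean for each of the 4 groups was fitted with limma 3.58.1 (trend) in R 4.3.3, and 6 pairwise contrasts and an F test were taken from it, two-sided, with Benjamini-Hochberg adjustment over all genes kept and a threshold of 0.05. The scripts were tested on simulated data. The text names all 10 genes, up to 3 called genes with the largest change per pathway list and comparison, and the gene with the most similar profile; not every gene that this rule allows is printed, and 1 list result is not reported here. The genes and lists were chosen with earlier results of these data known. Alternatives were other pseudocounts, filters, scalings, weights and fits, and leaving out each library.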

Additional observations from a re-analysis of the deposited data

How the results depend on the processing

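Of 29 calls on the 10 genes over 6 comparisons, 10 held in all 23 alternatives and 0 reversed. With no filter the genes called fell from 5 to 1 in vitrification I against fresh control, from 4 to 1 in vitrification I against vitrification, from 8 to 4 in vitrification II against fresh control and from 1 to 0 in vitrification against fresh control. Quantile normalization and median centring gave 4 in vitrification II against fresh control and 0 in vitrification against fresh control, and centring gave 2 in vitrification I against vitrification. Scaling to the non-mitochondrial total gave 2 in vitrification I against fresh control, and array weights 2 in vitrification I against vitrification. A fit of only the 2 groups compared gave 3, 0 and 0 for vitrification I against fresh control, vitrification I against vitrification and vitrification against fresh control. Leaving out 1 library gave 1 to 5 for vitrification I and 4 to 8 for vitrification II against fresh control, 0 to 5 for vitrification I and 0 to 4 for vitrification II against vitrification, and 0 to 1 for vitrification against fresh control. An alternative chosen after seeing the data, with vitrification I replicate 2 as the only library of its group, gave 1 and 0 for vitrification I against fresh control and vitrification, and 5 for vitrification II against vitrification. Some of these alternatives had fewer libraries or a larger number of genes, and the cause of the changed counts was not tested.

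With the replicate block, 3 genes were called in vitrification I against fresh control and 1 in vitrification I against vitrification. For the deviations of same-numbered libraries from their group means, r was -0.16 to 0.14 over 15 pairs, and 3 of 11 libraries correlated best with their own number. In groups this small the deviations within a group cancel out, so the pairs are not independent. These values cannot decide whether the numbers mark paired libraries.

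Changes that were not called turned sign in places. For vitrification against fresh control, median centring gave -0.23 for EGR1, -0.10 for FOS, -0.16 for IER2, -0.34 for JUN, -0.21 for KLF10 and -0.32 for ZFP36. Quantile normalization gave -0.19 for FOS, -0.10 for JUN and -0.10 for KLF10, array weights -0.033 for FOS, -0.15 for IER2 and -0.015 for KLF10, and the replicate block -0.017 for JUN and -0.088 for ZFP36. JUN in vitrification II was at 0.20 against fresh control and 0.074 against vitrification when the libraries were rescaled to equal sums, and at 0.064 against fresh control with array weights. KLF10 in vitrification I against fresh control was at -0.047 with centring and -0.0049 with array weights. Against vitrification it was at 0.074 with the non-mitochondrial total, 0.11 with quantile normalization, 0.16 with centring, 0.010 with array weights and 0.56 with vitrification I replicate 2 as the only library of its group, under which DUSP5 against fresh control was at -0.016. Leaving out 1 library gave -0.88 to 0.099 for EGR1 in vitrification II against vitrification I, and -0.098 to 0.87 for FOS and -0.45 to 0.32 for KLF10 in vitrification I against vitrification. It gave -0.31 to 0.47 for KLF10 in vitrification I and -0.19 to 0.095 for JUN in vitrification II against fresh control, and -0.20 to 0.056 for JUN in vitrification II against vitrification. For vitrification against fresh control it gave -0.23 to 0.73 for FOS, -0.20 to 0.40 for IER2, -0.11 to 1.82 for IER3, -0.12 to 0.17 for JUN, -0.074 to 0.30 for KLF10 and -0.16 to 0.23 for ZFP36.

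Groups of 2 or 3 libraries and an unknown depth limit these results: no detection limit can be given for EGR1, FOS or IER3 near 0.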
